A study of Mus musculus with 32 samples.

Results

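Maturation turns a germinal vesicle (GV) oocyte, fully grown and arrested with its nucleus intact, into a metaphase II (MII) oocyte, the ovulated egg that waits for sperm. Whether this step changed the oocyte's transcripts differently when the follicle had been vitrified was examined gene by gene, in all 32 sequenced oocytes. For each gene the difference (MII vitrified − GV vitrified) − (MII fresh − GV fresh) was estimated on the log2 scale. This value is called the interaction. A value above 0 means that the ratio of MII to GV was higher after vitrification than after fresh culture. It is the same number as the effect of vitrification in MII oocytes minus its effect in GV oocytes. The interaction was tested for 11470 of the 13175 genes in the table, those with enough counts.

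The oocytes were wild-type mouse oocytes, each sequenced as its own SMART-Seq library. There were 12 MII oocytes and 4 GV oocytes from vitrified follicles, and 12 MII oocytes and 4 GV oocytes from fresh follicles. The follicles of both treatments were isolated at the preantral stage and grown in encapsulated in vitro follicle culture, so fresh here means cultured but not vitrified. GV oocytes were collected on day 8, and MII oocytes on day 9 after ovulation had been induced with hCG. Vitrification is rapid cooling to a glass-like solid for storage, and whole follicles were vitrified, each with its immature oocyte inside, before the culture in which that oocyte grew. Strain, age and number of mice are not given in the sources used here, so oocytes may share a mouse or a culture, and the p-values measure the spread between these oocytes. GV libraries and MII libraries carry separate ranges of library numbers, so stage and library preparation cannot be told apart. The interaction compares treatments within each stage, and both treatments occur in every range.

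As background, a growing oocyte makes and stores messenger RNA, and transcription is off from the end of growth until after fertilization. During maturation the stored messages are either recruited for translation, by lengthening of their poly(A) tails, or shortened in tail and degraded. Recruitment depends on U-rich cytoplasmic polyadenylation elements close to the 3′ end of the message. The library kit primes on poly(A), so a change between stages can be a change in the amount of a transcript or in its tail, which cannot be told apart here. All CPM values below are counts scaled to 1 common library total, so they give a gene's share of the library and not molecules per oocyte.

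The 3′ ends of 10 genes described below are shown first, because this is where the signal for recruitment at maturation lies. They were picked for holding a match to the searched letters: 8 are the genes with a match among the 20 chosen by smallest p below, and the other 12 of those 20, which hold none, are not shown. The letters TTTTAT and TTTTAAT, the DNA spelling of the most common elements, were searched on the transcript strand in the last 100 bases of the GENCODE M21 transcript. A match to one is never also a match to the other. Each window is 30 bases of GRCm38 in transcript direction, with every match inside it in capitals. The first 3 genes have an interaction above 0, the next 5 below 0, and Btg4 and Cnot7, parts of the machinery that removes poly(A) tails in the egg, are shown as genes whose messages rose at maturation in both treatments.
Cpox, chr16:58680357-58680386, plus strand: attcagctaataaaTTTTATtataacataa
Pole3, chr4:62522675-62522704, minus strand: ctgttgagaagaTTTTAATgctttctacaa
Rnps1, chr17:24425795-24425824, plus strand: atttgttttgagTTTTATaactttgtagca
Ranbp2, chr10:58494282-58494311, plus strand: atatgcaacttaTTTTAATtcctgttaaga
Ncapg, chr5:45700492-45700521, plus strand: ctaacatgaaatTTTTATtgtgcttctgct
Atad2, chr15:58094073-58094102, minus strand: tcagatgtgtccTTTTATtgtacattttgt
Mpdz, chr4:81278557-81278586, minus strand: cgtatacatataTTTTATtatagcattctt
Mdm4, chr1:132986242-132986271, minus strand: cTTTTAATgcggTTTTATtgtgtttttgtg
Btg4, chr9:51119797-51119826, plus strand: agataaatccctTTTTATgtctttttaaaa
Cnot7, chr8:40493038-40493067, minus strand: tcttaaggtacaTTTTATatcaataaaaat
The match in Cpox begins 16 bases from the end of the transcript and that in Rnps1 begins 89 bases from it. Ncapg and Mdm4 hold 2 matches each. For Ncapg the one nearer the end is shown, and for Mdm4 both lie in the window. Of the 10819 tested genes with a 3′ untranslated region of at least 100 bases, 20.4% hold at least 1 match. A match is a description of the letters and not evidence that the site is used.

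The libraries were deep. Total counts ran from 5300208 to 12206512 in vitrified MII, from 11159677 to 16554201 in vitrified GV, from 6196976 to 10142902 in fresh MII and from 10357543 to 17687247 in fresh GV oocytes. Oocyte markers were present in every group, with summed levels of 15 markers between 14265 and 36808 CPM. Transcripts of 22 cumulus and granulosa markers summed to 3118 CPM in fresh MII replicate 11 and 589 CPM in vitrified MII replicate 12, against a median of 108.7 CPM over all MII oocytes. The other 22 MII oocytes summed to between 64.6 and 227 CPM, and the 8 GV oocytes to between 69.1 and 137 CPM. Each oocyte was also set against the mean profile of its own group, as 1 minus Spearman's rho. Fresh MII replicate 11 (0.191), vitrified GV replicate 1 (0.117) and fresh GV replicate 3 (0.0889) stood farthest from their groups. Both of these GV oocytes also had the lowest total counts of their groups, 11159677 and 10357543. The other GV oocytes had 14497464 to 17687247. The part of depth in their distance was not tested.

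MII oocytes differed from GV oocytes in nearly the same way after vitrification and after fresh culture. After vitrification 2678 genes were higher in MII than in GV oocytes (23.3% of genes tested) and 3861 were lower (33.7%), and after fresh culture 2615 were higher (22.8%) and 3413 lower (29.8%). In all, 5410 genes passed in both treatments, which is 82.7% of those that passed after vitrification and 89.7% of those that passed after fresh culture. Of these, 2275 were higher and 3133 lower in both, and 2 had opposite signs. Those 2 were low genes, Fads2b, of the fatty acid desaturase family, and Syt12, a synaptotagmin of secretory vesicles, chosen after their values were seen. In Syt12 all 4 vitrified GV oocytes were at 0, and in Fads2b all 4 fresh GV oocytes were.

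The 2 changes at maturation come from different oocytes, with no library in common. Both set MII against GV libraries, so a difference between stages in preparation or in deposited values enters both. Its part in their agreement was not tested. Over the 11470 genes Pearson's r between them was 0.903 and Spearman's rho 0.910, and over the 4684 genes whose mean log2 CPM was at least 4 Pearson's r was 0.971. Genes are not independent replicates, so these describe the 2 sets of changes and carry no test. The interaction can also be read as the difference between 2 effects of vitrification, likewise from different oocytes. The effect in MII and the effect in GV oocytes had a Pearson's r of 0.05 over all genes and 0.135 over the genes at or above that level. In MII oocytes the effect of vitrification had an unadjusted p under 0.05 in 1147 genes (10%), 317 higher and 830 lower, and edgeR called 1 gene after adjustment (0.00872%), Cox6c, which is described below. In GV oocytes 439 genes (3.83%) had such a p, 231 higher and 208 lower, and 0 were called (0%). Measurement error lowers a correlation of this kind, and this was not corrected for.

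**Figure D1:**
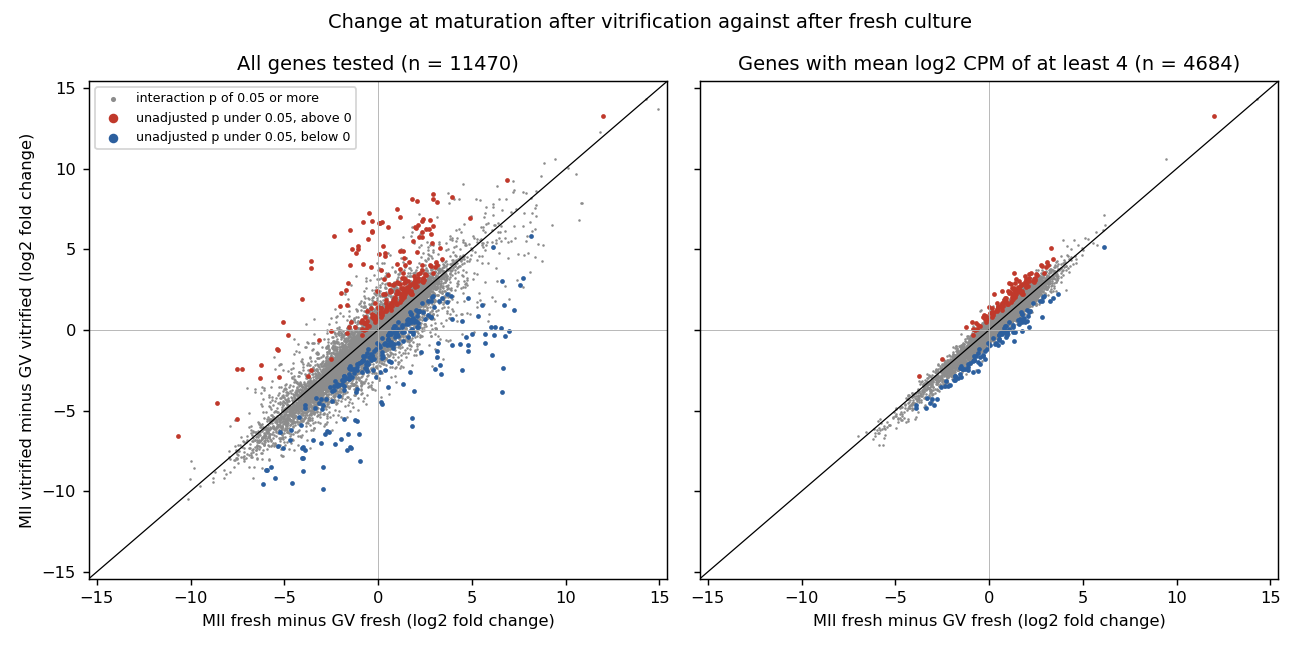
Log2 fold change at maturation after vitrification (MII vitrified minus GV vitrified, vertical axis) against that after fresh culture (MII fresh minus GV fresh, horizontal axis), 1 point per gene, for all 11470 genes tested and for the 4684 genes whose mean log2 CPM was at least 4. The line marks equal changes, coloured points have an unadjusted interaction p under 0.05, and the points lie closer to the line among the higher genes (r 0.903 and 0.971).

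Messages that are known to be recruited at maturation show the shared part. Ccnb1, cyclin B1, which drives the meiotic divisions with CDK1, had 2442, 1208, 453 and 758 CPM in vitrified GV oocytes, against 711, 799, 1475 and 384 CPM in fresh GV oocytes. In vitrified MII oocytes its lowest, median and highest levels were 5724, 9071 and 13196 CPM, against 5286, 7084 and 11058 CPM in fresh MII oocytes. It rose at maturation by 2.95 ± 0.36 on the log2 scale after vitrification and by 3.13 ± 0.36 after fresh culture (SE), and the treatments overlapped at both stages. The interaction of Ccnb1 was −0.18 ± 0.42 (SE), and it changed sign in 3 of the alternative analyses. Btg4, which brings the deadenylase complex to maternal messages, rose by 2.43 ± 0.31 after vitrification and by 1.90 ± 0.30 after fresh culture, with an interaction of 0.54 ± 0.38 that was 0.04 without fresh GV replicate 3. Cnot7, a deadenylase of that complex, rose by 2.64 ± 0.41 and by 3.12 ± 0.42, with an interaction of −0.48 ± 0.48 that changed sign without vitrified GV replicate 1. In the transcripts searched, Btg4 and Cnot7 hold 1 match each and Ccnb1 holds none, so the search does not find every recruited message.

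Genes whose last 100 bases hold the searched letters were higher at maturation in the median, in both treatments. The 8607 genes with no match had a median log2 change of −0.51 after vitrification and −0.36 after fresh culture. With 1 match (1856 genes) the medians were 0.49 and 0.49, and with 2 or more (356 genes) 0.74 after vitrification and 0.66 after fresh culture. Genes with a match also had higher levels, with a median mean log2 CPM of 4.13 against 3.06 for genes without. Among genes whose mean log2 CPM was at least 4 the medians of genes with no match were 0.37 after vitrification and 0.41 after fresh culture. At that level genes with 1 match had 1.07 and 1.02, and genes with 2 or more 0.99 and 0.93. The median interaction was −0.15 with no match, 0.00 with 1 match and 0.07 with 2 or more, beside −0.12 over all 10819. At a mean log2 CPM of at least 4 it was −0.07 with no match, 0.03 with 1 and 0.06 with 2 or more. These medians are descriptions without a test, and the part of gene level in them was not tested.

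**Figure D2:**
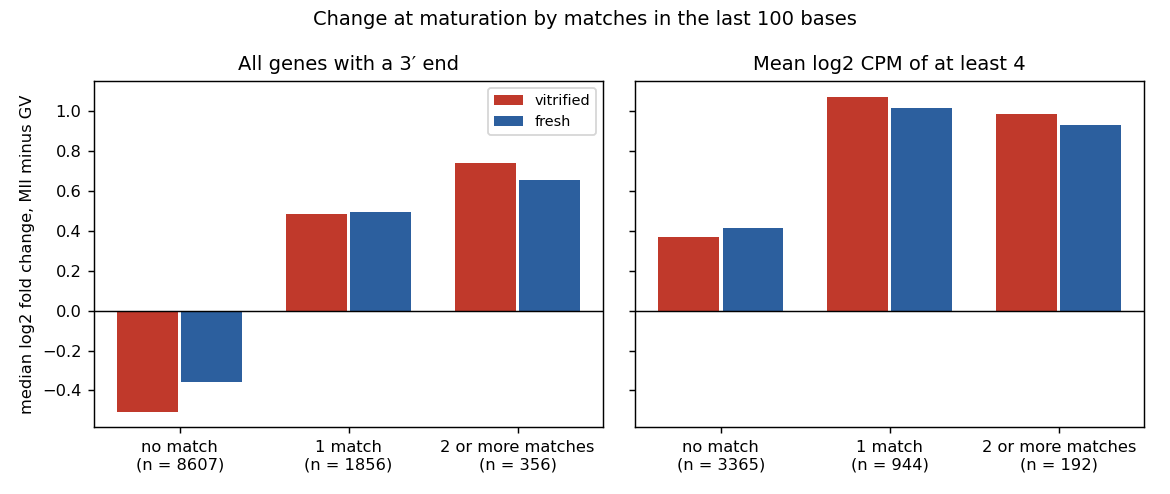
Median log2 fold change at maturation (MII minus GV, vertical axis) of genes with 0, 1 and 2 or more matches to TTTTAT or TTTTAAT in the last 100 bases of the transcript, after vitrification (red) and after fresh culture (blue), for all genes with a 3′ end and for those whose mean log2 CPM was at least 4. Bars carry no error because genes are not replicates, and both treatments show higher medians with a match than without.

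No gene passed the test of the interaction after adjustment over all genes: edgeR's quasi-likelihood test called 0 of 11470 (0%), with a smallest adjusted p of 0.0635. An unadjusted p under 0.05 was reached by 467 genes (4.07%), 224 above 0 (1.95%) and 243 below 0 (2.12%). On the same counts limma-voom called 0 genes and DESeq2 called 8, of which 7 were above 0. Those 8 were Cpox, Pole3, Rdh12, Clec2h, Khdrbs2, Evi2b, Plk3 and Fads2b. With the size factors of DESeq2 in edgeR 3 passed (Cpox, Clec2h and Khdrbs2), and the same 3 passed among the 6616 genes whose deposited values were all whole. Leaving out 1 oocyte gave 0 calls in 29 of 32 cases. Without fresh GV replicate 2 there were 4 (Clec2h, Evi2b, Khdrbs2 and Pole3), without fresh GV replicate 4 there was 1 (Clec2h), and without vitrified GV replicate 4 there was 1 (Efhd1).

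The absence of calls does not show that the 2 changes were equal, since with 4 GV oocytes in each treatment the interaction was measured coarsely. Its median standard error was 0.71 on the log2 scale. The 95% interval lay within −1 and 1, so that a 2-fold difference in either direction was outside it, for 1468 genes (12.8%), and within −2 and 2 for 50.4%. The precision followed the level of the gene. Among the 573 genes whose mean log2 CPM was at least 8 the median standard error was 0.35 and 57.8% had an interval within −1 and 1, against 0.49 and 15.8% at levels of 4 to 6. Below a mean log2 CPM of 4 fewer than 1% of genes in each class of level had such an interval.

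The interaction was below 0 in 6712 of 11470 genes, with a median of −0.13. Its median rose with the level of the gene, from −0.36 below a mean log2 CPM of 0 to −0.10 at 4 to 6. It was −0.02 at 6 to 8 and 0.04 at 8 and over. The part of gene level in the medians that follow was not tested. Of the 3133 genes that fell at maturation in both treatments 72.5% had an interaction below 0, with a median of −0.31. Their median log2 change at maturation was −3.19 after vitrification and −2.80 after fresh culture. Of the 2275 genes that rose in both 42.9% had an interaction below 0, with a median of 0.07, and their changes at maturation were 1.87 after vitrification and 1.80 after fresh culture in the median. These are medians over genes, with no test, and both sets were chosen on the 2 changes whose difference is the interaction. Without fresh MII replicate 11, the library with the cumulus transcripts, the median interaction over all genes was −0.05. The medians of the 2 sets were not recomputed without that library.

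To describe single genes, the 10 with the smallest p in each direction were taken among genes whose mean log2 CPM was at least 4. None of these 20 passed the adjusted threshold, and their values describe the largest differences relative to error in this table. Since they were chosen on the interaction, neither its sign nor a lack of overlap between their GV groups is a result. The share of all genes whose GV groups do not overlap is not given here. Each lack of overlap stated below is therefore a description only. All 10 genes above 0 were lower in vitrified than fresh GV oocytes in the mean, and higher in vitrified than fresh MII oocytes. All 10 genes below 0 showed the reverse. Of the 10 above 0, 9 rose at maturation in each treatment. Hsf5, a heat shock factor family member needed in male meiosis, was the exception, with a log2 change of 0.49 ± 0.28 after vitrification that missed the threshold, while it fell by 0.90 ± 0.26 after fresh culture. Of the 10 below 0, 2 rose and 5 fell after vitrification, and 5 rose and 2 fell after fresh culture. At this level 40.8% to 59.4% of genes rose after vitrification and 41.2% to 57.0% after fresh culture, by the number of matches they held. The choice of genes also favours these directions.

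Cpox encodes coproporphyrinogen oxidase, a mitochondrial enzyme of haem synthesis, on chromosome 16. It had 12.4, 12.9, 3.47 and 13.5 CPM in the 4 vitrified GV oocytes, against 29.1, 29.7, 27.6 and 30.9 CPM in the 4 fresh GV oocytes. Every vitrified GV oocyte lay below every fresh one. In vitrified MII oocytes the lowest, median and highest values were 48.1, 78.1 and 120.1 CPM, against 32.3, 62.2 and 79.7 CPM in fresh MII oocytes, and these groups overlapped. At maturation Cpox rose by 2.93 ± 0.32 on the log2 scale after vitrification and by 1.04 ± 0.28 after fresh culture (SE), so that its interaction was 1.88 ± 0.38 (SE), 3.69-fold on the linear scale. The edgeR test gave it an adjusted p of 0.0676. Over the alternatives this adjusted p ran from 2.75e-04 by DESeq2 to 0.98 with the MII libraries numbered 20 and over, and the interaction ran from 1.59 to 2.14. Vitrified GV replicate 3 was the lowest, and without it the interaction was 1.59.

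Pole3 encodes a histone-fold subunit of DNA polymerase epsilon. Its levels were 46.3, 73.6, 54.1 and 68.5 CPM in vitrified GV oocytes, against 86.4, 60.1, 135 and 118 CPM in fresh GV oocytes, with 1 fresh oocyte inside the range of the vitrified ones. Vitrified MII oocytes had 486, 717 and 900.1 CPM (lowest, median, highest), against 285, 488 and 612 CPM in fresh MII oocytes. The gene thus rose by 3.50 ± 0.25 after vitrification and by 2.25 ± 0.23 after fresh culture, with an interaction of 1.25 ± 0.28 and an adjusted p of 0.214 by edgeR. Rdh12, a retinol dehydrogenase, measured 15.7, 22.3, 20.8 and 27.1 CPM in vitrified GV oocytes, against 25.1, 42.6, 45.8 and 88.03 CPM in fresh ones, where only the lowest fresh oocyte lay inside the vitrified range. It had 118, 179 and 338 CPM in vitrified MII oocytes (lowest, median, highest), against 76.7, 139.6 and 197 CPM in fresh MII oocytes. Its interaction was 1.73 ± 0.39, with an adjusted p of 0.214 by edgeR and of 0.0254 by DESeq2.

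Rims1, a scaffold of the secretory active zone in neurons, was low in GV oocytes and rose in both treatments. It had 5.10, 12.1, 1.69 and 8.16 CPM in vitrified GV oocytes, against 12.4, 17.9, 40.5 and 10.8 CPM in fresh GV oocytes, and the treatments overlapped by 1 oocyte on each side. Its medians in MII oocytes were 234 CPM after vitrification and 206 CPM after fresh culture. Fresh GV replicate 3 was the highest GV oocyte, and without it the interaction of Rims1 was 1.20, against 1.78 ± 0.46 with it. Rnps1, a splicing regulator that also belongs to the exon junction complex, had the smallest standard error of the 10 genes above 0. It rose by 3.91 ± 0.23 after vitrification, with 11.5, 19.1, 16.7 and 19.7 CPM in vitrified GV oocytes and a median of 259 CPM in vitrified MII oocytes. After fresh culture it rose by 3.02 ± 0.22, with 25.1, 15.01, 37.04 and 24.03 CPM in GV oocytes and a median of 213 CPM in MII oocytes. The interaction of Rnps1 was 0.89 ± 0.25.

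The other 5 genes above 0 had interactions between 1.08 and 2.20. Nfix, a transcription factor of the nuclear factor I family, had the largest of these and also the largest standard error, at 2.20 ± 0.57. Agk, a mitochondrial lipid kinase that also serves protein import, rose by 3.99 ± 0.31 after vitrification and by 2.80 ± 0.28 after fresh culture. Gpatch2, a nuclear G-patch protein, had 1.43, 9.56, 4.51 and 9.33 CPM in vitrified GV oocytes, against 15.5, 15.2, 15.8 and 11.2 CPM in fresh ones, with no overlap. Tmem38b, a cation channel of the endoplasmic reticulum that supports calcium release, rose by 2.83 ± 0.27 after vitrification and by 1.74 ± 0.25 after fresh culture.

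Among genes below 0, Ranbp2 had the smallest p. It encodes a large nucleoporin on the cytoplasmic face of the nuclear pore that also works at the kinetochore. It had 42.8, 24.9, 23.2 and 22.96 CPM in vitrified GV oocytes, against 16.8, 4.57, 5.99 and 7.97 CPM in fresh GV oocytes, and every vitrified GV oocyte lay above every fresh one. In vitrified MII oocytes its lowest, median and highest levels were 14.3, 25.2 and 54.5 CPM, against 19.6, 29.996 and 42.8 CPM in fresh MII oocytes, which overlapped over most of their range. Ranbp2 rose at maturation by 1.73 ± 0.35 after fresh culture, while after vitrification its change was −0.05 ± 0.31 and missed the threshold. Its interaction was −1.78 ± 0.45 (SE), with an adjusted p of 0.541 by edgeR. Vitrified GV replicate 1 was the highest GV oocyte, and without it the interaction was −1.50.

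Osbpl9, a lipid transfer protein of the oxysterol-binding family, fell at maturation in both treatments. It had 391, 337, 264 and 255 CPM in vitrified GV oocytes, against 170.2, 193, 179.9 and 243 CPM in fresh GV oocytes, with no overlap. Its levels in MII oocytes were 23.5, 36.8 and 70.7 CPM after vitrification (lowest, median, highest), against 31.1, 59.2 and 119 CPM after fresh culture. It fell by 2.96 ± 0.24 after vitrification and by 1.65 ± 0.25 after fresh culture, with an interaction of −1.31 ± 0.38 (adjusted p 0.691 by edgeR). This value stayed between −1.43 and −1.18 when any 1 oocyte was left out.

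Ncapg, a subunit of condensin I, which compacts chromosomes for division, had 516, 243, 170.4 and 243 CPM in vitrified GV oocytes, against 153, 132, 249.8 and 147 CPM in fresh GV oocytes. Vitrified GV replicate 1 was the highest of the 8 GV oocytes. Without it the interaction was −0.76, against −1.19 ± 0.37 with it. Mdm4, which restrains p53, showed the same oocyte, with 5647, 1881, 962 and 1055 CPM in vitrified GV oocytes, against 789, 830.3, 1957 and 584 CPM in fresh GV oocytes. Its interaction of −1.34 ± 0.43 became −0.44 without vitrified GV replicate 1 and −1.88 without fresh GV replicate 3. Srp54c, which encodes a signal recognition particle subunit and has near-identical neighbouring copies, so that its counts are uncertain, had an interaction of −1.42 ± 0.39, and −0.75 without vitrified GV replicate 1.

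Cct2, a subunit of the chaperonin that folds actin and tubulin, had 112, 80.7, 48.7 and 70.3 CPM in vitrified GV oocytes, against 39.2, 51.4, 84.2 and 59.3 CPM in fresh GV oocytes, and these groups overlapped. In MII oocytes the levels were 12.2, 27.4 and 34.6 CPM after vitrification (lowest, median, highest), against 28.5, 42.7 and 71.6 CPM after fresh culture, with the fresh median above the highest vitrified oocyte. Cct2 fell by 1.53 ± 0.25 after vitrification and changed by −0.35 ± 0.26 after fresh culture, where it missed the threshold. The interaction was −1.18 ± 0.38, with an adjusted p of 0.91 by edgeR. The remaining genes below 0 were Atad2, a chromatin ATPase with a bromodomain, Mpdz, a scaffold with many PDZ domains, Slk, a kinase of the cytoskeleton, and Ifit1bl2, of an interferon-induced family. Their interactions lay between −1.51 and −1.04. The interaction of Slk was −0.71 without vitrified GV replicate 1, against −1.14 ± 0.38 with it. Of the 10 genes below 0, 5 hold a match in the last 100 bases, shown above, and of the 10 above 0, 3 do. Over all levels 20.4% of genes with a 3′ end hold one. At a mean log2 CPM of at least 4, from which the 20 were taken, 3365 genes hold no match, 944 hold 1 and 192 hold 2 or more. Of the 2212 genes with a match, 71 had an unadjusted interaction p under 0.05 above 0 and 33 below 0. Of the 8607 genes without a match, 147 had such a p above 0 and 190 below 0. Over all 10819 genes the counts were 218 and 223. At a mean log2 CPM of at least 4 they were 73 and 84 with no match, 33 and 15 with 1, and 6 and 2 with 2 or more. These counts are descriptions without a test.

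**Figure D3:**
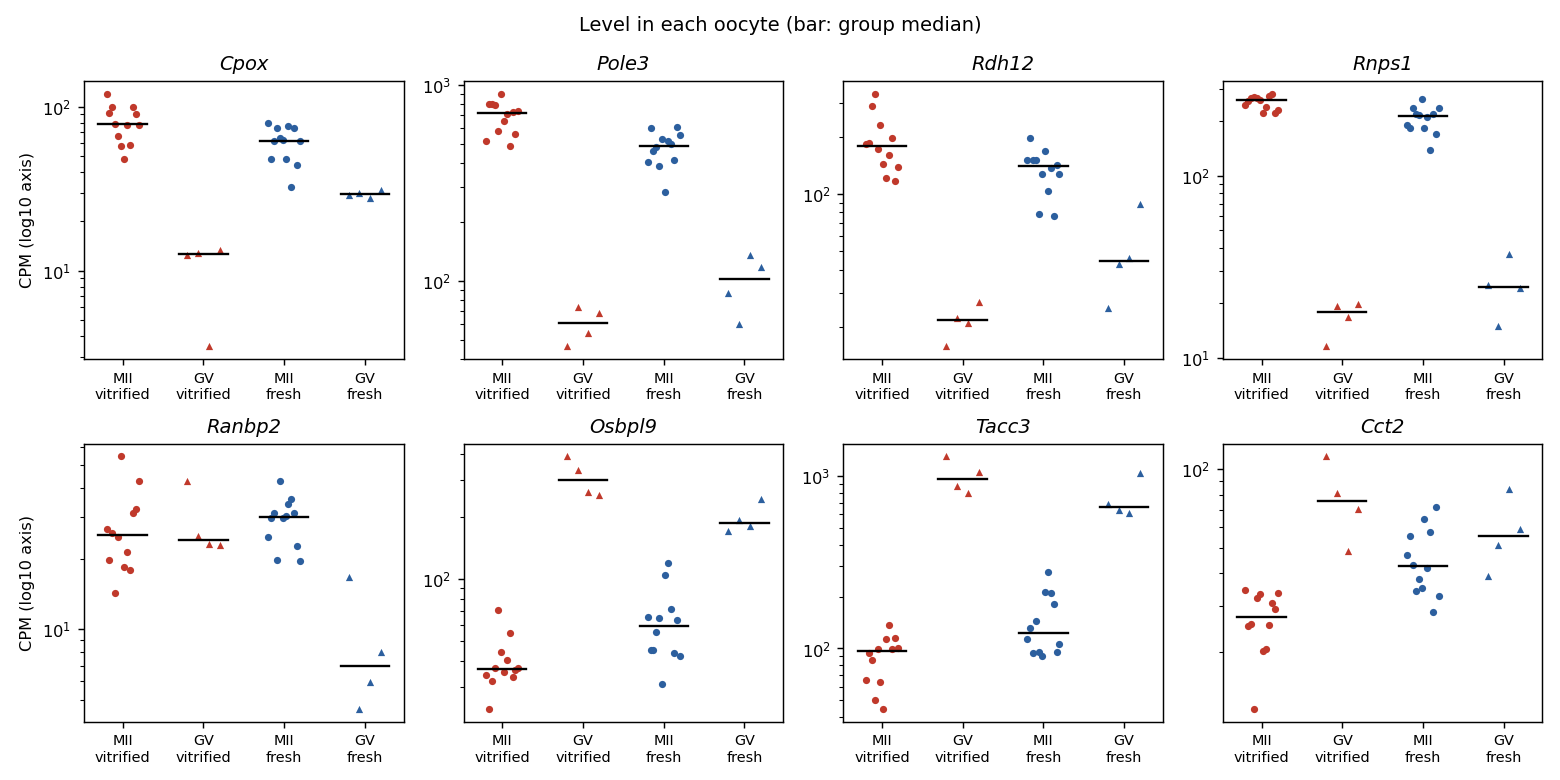
Level of 8 genes in each oocyte, in CPM on log10 axes, with groups from left to right MII vitrified (n = 12), GV vitrified (n = 4), MII fresh (n = 12) and GV fresh (n = 4), and a bar at each median. For Cpox the vitrified GV oocytes lie below all fresh GV oocytes, and for Ranbp2 and Osbpl9 they lie above them. Cpox, Ranbp2 and Osbpl9 were chosen by p-values that use these same oocytes.

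**Figure D4:**
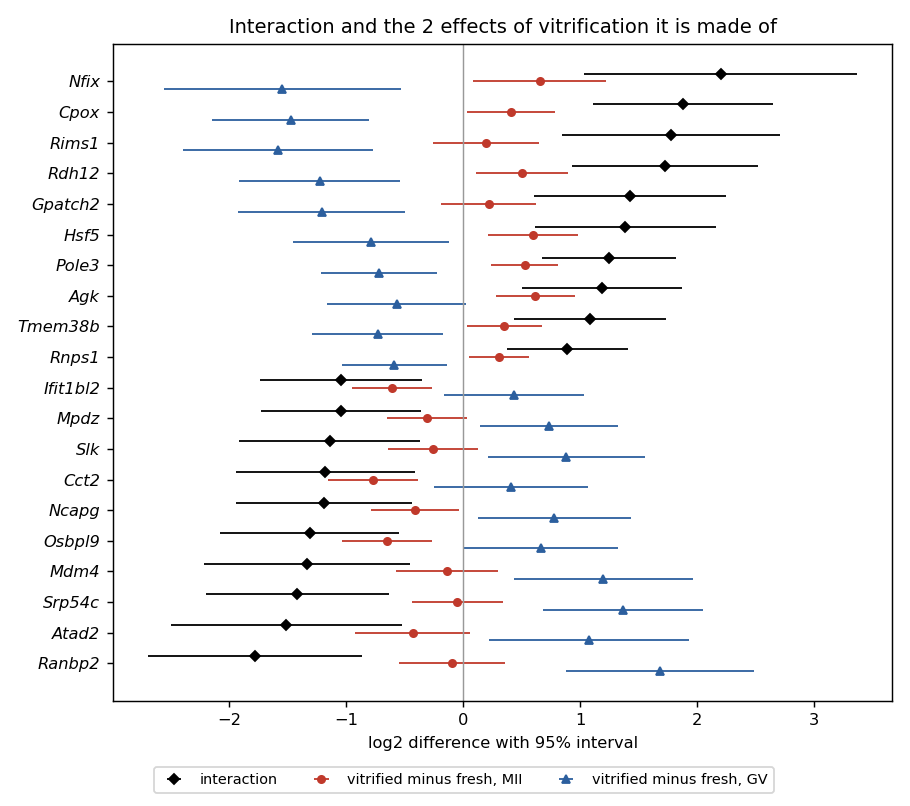
Log2 interaction (black) and the effects of vitrification in MII (red) and in GV oocytes (blue) it is the difference of, each with its 95% interval, for the 20 genes chosen by smallest p. The intervals are wider in GV oocytes (n = 4 against 4) than in MII oocytes (n = 12 against 12), and the 2 effects lie on opposite sides of 0 by the choice of genes.

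The smallest p-values of all belonged to low genes that the level limit kept from the 20, and they are named after their values were seen. Clec2h, a C-type lectin, had deposited counts of 0, 1, 1 and 1 in vitrified GV oocytes, against 53, 0, 70 and 1 in fresh GV oocytes. In vitrified MII oocytes it had 6.21, 12.5 and 23.6 CPM (lowest, median, highest), against 4.82, 8.29 and 16.6 CPM in fresh MII oocytes. The fitted interaction was 5.87 ± 1.13 (SE), with an adjusted p of 0.0635 by edgeR, and it rests on 2 of the 4 fresh GV oocytes. Without fresh GV replicate 3, the highest, it was 4.35.

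Khdrbs2, an RNA-binding splicing regulator best known from brain, had no count in any vitrified GV oocyte, against 39, 0, 63 and 10 counts in fresh GV oocytes. With vitrified GV oocytes set to a floor of 3 counts over the 4 libraries, the fresh GV mean was 48.8-fold higher. That figure leaves out the spread between oocytes, and a fresh GV oocyte was itself at 0. In MII oocytes the medians were 1.85 CPM after vitrification and 1.47 CPM after fresh culture. Fads2b was the single gene that DESeq2 called below 0. Its 192 counts in vitrified GV replicate 1 stand against 1 count in the other 3 vitrified GV oocytes together and none in fresh GV oocytes, so that call rests on 1 library. Evi2b, a membrane protein of blood cells, had 1, 12, 7 and 0 counts in vitrified GV oocytes, against 77, 1, 66 and 48 in fresh GV oocytes. Plk3, a polo-like kinase of the stress response, had 11, 5, 5 and 0 counts, against 30, 53, 32 and 100 in fresh GV oocytes, with no overlap.

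Gene groups were described by the counts and medians of their members, beside those of all genes. In 21 lists, on the machinery of the oocyte and on stress, 0 members passed the interaction. As a yardstick, 4.07% of all genes had an unadjusted p under 0.05, and the median of all genes was −0.13.

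Cytosolic ribosomal proteins build the ribosome. Of 84 members tested (Rack1 included), 81 fell after vitrification and 78 after fresh culture, with medians of −5.21 and −4.63 on the log2 scale, and 1 member, Rack1, rose in both. Their summed level was 16001, 16227, 22369 and 19613 CPM in vitrified GV oocytes, against 23345, 23267, 25758 and 23225 CPM in fresh GV oocytes, with no overlap. In vitrified MII oocytes the lowest, median and highest sums were 658, 1164 and 1822 CPM, against 642, 1333 and 5768 CPM in fresh MII oocytes. Fresh MII replicate 11 held the highest sum, and the next was 2387 CPM. The median interaction of the list was −0.60, with 74 of 84 members below 0. Only Rpl21 had an unadjusted p under 0.05 (1.19% of members), with no count in any vitrified MII oocyte.

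That median turned on 1 oocyte. Without fresh MII replicate 11, the median interaction of ribosomal proteins was 0.13, with 29 of 84 members below 0, and by limma-voom on all oocytes it was 0.01. Within the MII libraries numbered under 20 it was −0.00, and within those of 20 and over, which include that oocyte, −1.29. The cumulus and granulosa markers of fresh MII replicate 11 summed to 3118 CPM, beside its ribosomal sum of 5768 CPM, and their part in the result was not tested.

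Genes for the mitochondrial machinery of oxidative phosphorylation that the nucleus encodes gave similar medians. Of 78 genes listed 63 were matched and tested, and of the ATP synthase subunits listed only Atp5pb was. Of these 63 members 53 fell after vitrification and 52 after fresh culture, with medians of −4.22 and −3.58, while 6 rose in each. The list's median interaction was −0.60, with 54 members below 0, and without fresh MII replicate 11 it was −0.12, with 34 below 0. Cox6c, a subunit of cytochrome c oxidase, had 368, 317, 241 and 376 CPM in vitrified GV oocytes, against 448, 410.0, 594 and 361 CPM in fresh ones. In MII oocytes its levels were 14.5, 31.9 and 39.2 CPM after vitrification (lowest, median, highest), against 24.8, 80.7 and 112 CPM after fresh culture. Its interaction of −0.84 ± 0.45 had an unadjusted p of 0.0731 by edgeR. The one member with an unadjusted p under 0.05 was Ndufa12, of complex I, whose highest fresh MII oocyte had 24.1 CPM against a median of 0.416 CPM and whose interaction was −1.55 without that oocyte, replicate 11, against −3.72 ± 1.56 with it. Mitochondrial ribosomal proteins had a median interaction of −0.22 over 78 members, which was 0.06 without fresh MII replicate 11, and Mrps28 (below 0) and Mrpl19 (above 0) had an unadjusted p under 0.05.

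Protein turnover and folding gave the other medians furthest below that of all genes. Of 36 proteasome subunits 25 fell after vitrification and 22 after fresh culture, and the median interaction was −0.62, with 29 members below 0. Psmd12, of the lid that recognises substrates, had an unadjusted p under 0.05, with 886, 293, 155 and 295 CPM in vitrified GV oocytes, against 173, 222, 443 and 206 CPM in fresh ones. Vitrified GV replicate 1 was the highest of the 8, and without it the interaction was −0.28, against −1.01 ± 0.44 with it. The proteasome median was −0.06 without fresh MII replicate 11 and −0.36 without vitrified GV replicate 1. All 8 subunits of the chaperonin CCT were tested, 6 of them below 0, with a median interaction of −0.64. Cct2 and Tcp1 had an unadjusted p under 0.05, and Tcp1 fell by 2.33 ± 0.30 after vitrification and by 1.12 ± 0.31 after fresh culture. This median was between −0.87 and −0.50 when any 1 oocyte was left out. Translation initiation factors had a median of −0.31 over 40 members, which was −0.14 without fresh MII replicate 11, with none at an unadjusted p under 0.05.

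Spindle, kinetochore and cohesion genes held the largest number of members with an unadjusted p under 0.05 of the lists, 7 of 44 (15.9%). By share the CCT list, with 8 members, was higher (25%). The median interaction of the spindle list, −0.18, was near that of all genes. Of its 7 members with such a p, those below 0 were Tacc3, Spc25, Birc5, the checkpoint genes Bub1 and Bub3, and Stag3 of meiotic cohesin. Prc1 was above 0. In each treatment 22 members rose at maturation, while 13 fell after vitrification and 12 after fresh culture. Without vitrified GV replicate 1 the number with such a p was 3 and the median 0.03, without fresh GV replicate 4 the number was 3, and without fresh GV replicate 3 it was 10.

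Tacc3, which stabilises spindle microtubules, had 1298, 869.7, 799 and 1048 CPM in vitrified GV oocytes, against 691, 634, 607 and 1043 CPM in fresh GV oocytes. In MII oocytes it had 44.6, 96.4 and 137 CPM after vitrification (lowest, median, highest), against 90.2, 123 and 276 CPM after fresh culture, and both stages overlapped. It fell by 3.49 ± 0.25 after vitrification and by 2.35 ± 0.25 after fresh culture, and its interaction of −1.14 ± 0.39 ran from −1.35 to −0.99 when any 1 oocyte was left out. Birc5, survivin of the chromosomal passenger complex, fell by 3.20 ± 0.28 after vitrification and by 2.28 ± 0.28 after fresh culture. Spc25, of the NDC80 kinetochore complex, fell by 3.42 ± 0.34 and by 2.06 ± 0.34, with 586, 252, 90.3 and 92.2 CPM in vitrified GV oocytes, against 154, 103, 195 and 77.4 CPM in fresh ones. Without vitrified GV replicate 1 the interaction of Spc25 was −0.53, against −1.36 ± 0.53 with it, and that of Birc5 was −0.54, against −0.91 ± 0.44. Prc1, which bundles microtubules of the spindle midzone, rose by 3.38 ± 0.28 after vitrification and by 2.57 ± 0.27 after fresh culture. Its GV levels were 289, 283, 303 and 309 CPM in vitrified oocytes, against 397, 406, 432 and 290.3 CPM in fresh ones.

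Genes of the cell cycle and of message storage lay near the background. Of 45 genes of cyclin B, CDK1 and meiotic maturation 23 rose in each treatment, and the median interaction was −0.15. Aurkb, a kinase of the passenger complex, rose by 1.17 ± 0.34 after vitrification and by 2.20 ± 0.37 after fresh culture, and had an unadjusted p of 0.0297 for the interaction by edgeR. Rps6ka2, a ribosomal S6 kinase, was the other member with a p under 0.05, at no count in any vitrified MII oocyte and a sign that changed by limma-voom. Without fresh MII replicate 11 this list held 1 member with such a p, and without vitrified GV replicate 3 it held 5. Among 56 genes of maternal message storage and decay the median was −0.11. There Tent2, a cytoplasmic poly(A) polymerase, rose by 1.01 ± 0.27 after vitrification and by 1.75 ± 0.28 after fresh culture, and Cnot4, of the CCR4-NOT complex, was above 0 at 0.72 ± 0.32. The interaction of Tent2 was −0.03 without vitrified GV replicate 1, against −0.74 ± 0.36 with it, and that of Cnot4 was 0.25 without fresh GV replicate 3.

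Oocyte identity genes had a median interaction of −0.03 over 29 members, with Gdf9 and Oas1d above 0 at an unadjusted p under 0.05 (6.90%). Gdf9, the growth factor by which the oocyte steers its cumulus cells, had 1227, 2315, 3390.2 and 2861 CPM in vitrified GV oocytes, against 3319.7, 2997, 1805 and 4866 CPM in fresh GV oocytes. Its MII levels were 5026, 6768 and 8545 CPM after vitrification (lowest, median, highest), against 3613, 5431 and 8123 CPM after fresh culture. It rose by 1.47 ± 0.25 after vitrification and by 0.75 ± 0.23 after fresh culture, with overlap at both stages. Oas1d, an oocyte member of the oligoadenylate synthetase family, rose by 2.94 ± 0.22 and by 2.40 ± 0.21. Without vitrified GV replicate 1 no member of this list had such a p. Maternal effect factors, which the embryo needs from the egg, had a median of −0.39 over 39 members, and −0.13 without vitrified GV replicate 1. Nlrp14, of the family of the subcortical maternal complex, had an interaction of −1.10 ± 0.46, and Zscan4c was at or near 0 in most MII oocytes. Khdc3, of the same complex, fell by 4.15 ± 0.38 after vitrification and by 3.13 ± 0.37 after fresh culture, with an interaction of −1.02 ± 0.59.

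Lists of stress genes had medians near that of all genes. The share of members with an unadjusted p under 0.05 was 9.68% for heat and cold shock and 8.11% for apoptosis and DNA damage response. It was 4.88% for antioxidant enzymes and 2.86% for endoplasmic reticulum stress, beside 4.07% of all genes. For the 31 genes of heat and cold shock the median interaction was −0.18, and 3 had an unadjusted p under 0.05, against 1 without fresh MII replicate 11 and 5 without vitrified GV replicate 3. Hspa8, the constitutive cytosolic HSP70, fell by 2.73 ± 0.33 after vitrification and by 1.58 ± 0.34 after fresh culture, and Hspa4, its exchange factor, fell by 3.56 ± 0.27 and by 2.56 ± 0.27. The small heat shock protein Hspb1 had 2.33, 5.18, 7.32 and 6.89 CPM in vitrified GV oocytes, against 4.42, 28.8, 67.2 and 5.66 CPM in fresh ones, which overlapped, and an interaction of 1.95 ± 0.94 that was 0.90 without fresh GV replicate 3. In the endoplasmic reticulum stress list (35 members, median −0.16) only Ppp1r15a, which lets translation resume after stress, had such a p. It rose by 2.70 ± 0.22 after vitrification and by 2.10 ± 0.21 after fresh culture.

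The 41 antioxidant enzymes tested had a median of −0.08, which was 0.20 without fresh MII replicate 11. Gpx3, a secreted glutathione peroxidase, rose by 2.61 ± 0.42 after vitrification and by 1.21 ± 0.38 after fresh culture. It had 1.52, 8.30, 20.1 and 6.29 CPM in vitrified GV oocytes, against 14.6, 21.5, 6.82 and 21.2 CPM in fresh ones, which overlapped. Its interaction was 1.40 ± 0.51, and 2.15 without vitrified GV replicate 3. Glrx5, a mitochondrial glutaredoxin for iron-sulfur clusters, was near 0 in GV oocytes, with 0.268, 0.252, 0.997 and 0.0507 CPM in vitrified and 0.0810, 0, 0.369 and 0.0539 CPM in fresh oocytes. Its medians in MII oocytes were 21.5 CPM after vitrification and 32.4 CPM after fresh culture, so its interaction of −2.31 ± 0.74 rests on GV values of at most 0.997 CPM. Without vitrified GV replicate 3 it was −1.22, and without fresh GV replicate 3 −3.32. Of 37 genes of apoptosis and DNA damage response (median −0.00), Mdm4, Atr, a checkpoint kinase, and Casp8, an initiator caspase, were below 0 at an unadjusted p under 0.05. Without fresh GV replicate 4 the list held 1 member with such a p, and without vitrified GV replicate 3 it held 5. The interaction of Casp8 was −1.38 ± 0.66, and −0.53 without vitrified GV replicate 1. Actin and cortex genes (41, median −0.15), calcium and zinc handling genes (22, −0.17) and water channels and lipid handling genes (25, −0.25) held none. Replication-dependent histones, of which 23 could be tested, had a median of 0.09, which was 0.51 without vitrified GV replicate 3, and none with such a p.

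**Figure D5:**
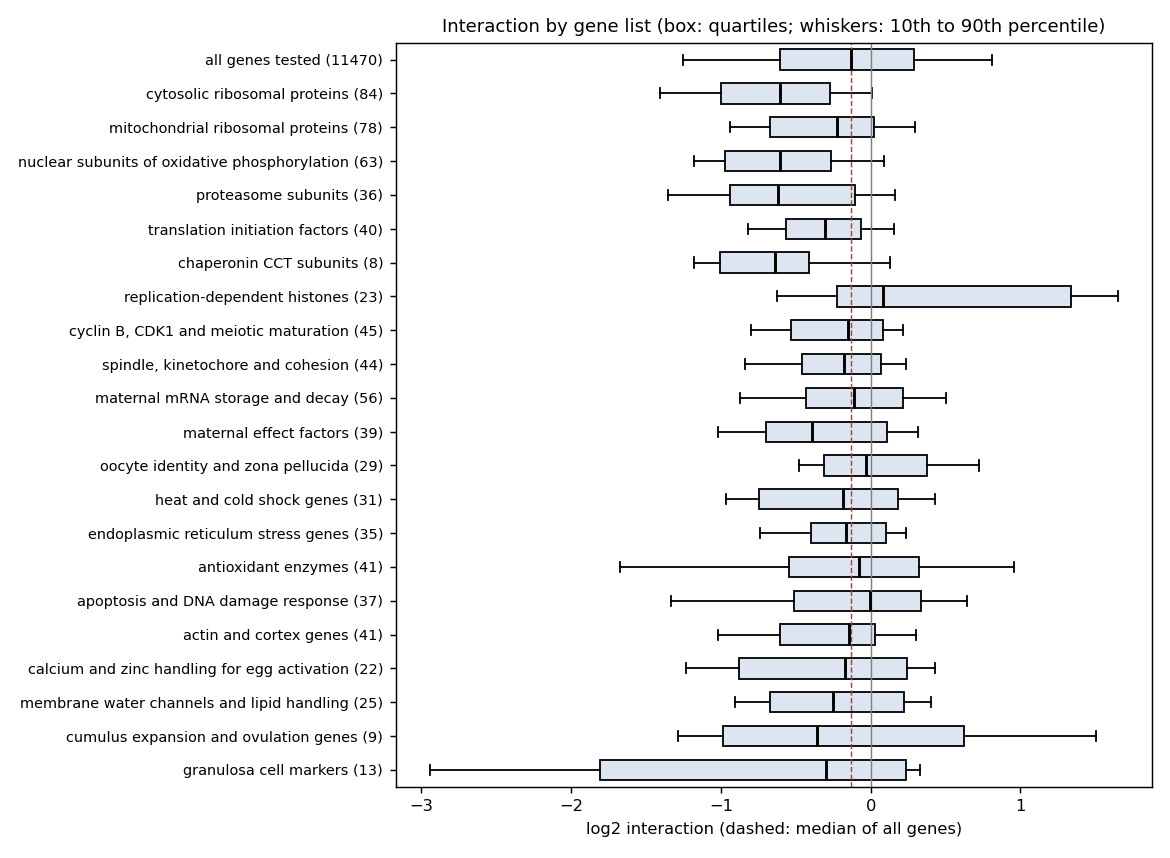
Log2 interaction by gene list (horizontal axis), with the number of members tested in brackets, boxes at the quartiles and whiskers from the 10th to the 90th percentile over genes. The dashed line is the median of all genes (−0.13), and the boxes of ribosomal proteins, oxidative phosphorylation, proteasome and CCT lie furthest below it. Without fresh MII replicate 11 the medians of the first 3 were 0.13, −0.12 and −0.06, beside −0.05 for all genes.

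Markers of the follicle's somatic cells were read as a check on RNA from other cells. Cumulus expansion genes had a median interaction of −0.36 over the 9 tested, which was 1.20 without fresh MII replicate 11 and −2.77 without vitrified MII replicate 12, and granulosa markers one of −0.30 over 13, which was 0.31 without fresh MII replicate 11 and −0.77 without fresh GV replicate 4. Has2 and Inhbb, of these 2 lists, had an unadjusted p under 0.05. Rfc4, which loads the replication clamp on DNA and lies below the level limit, is given because the rule for named genes lists it. It had 80.1, 47.95, 28.8 and 43.1 CPM in vitrified GV oocytes, against 18.9, 17.5, 23.8 and 10.6 CPM in fresh GV oocytes, with no overlap. In MII oocytes its levels were 1.11, 3.26 and 6.86 CPM after vitrification (lowest, median, highest), against 1.83, 6.95 and 20.3 CPM after fresh culture. It fell by 3.84 ± 0.47 after vitrification and by 1.19 ± 0.48 after fresh culture, and its interaction was −2.64 ± 0.74 (adjusted p 0.651 by edgeR).

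Passing in 1 treatment and not in the other did not by itself mark an interaction. Of the 1129 genes that passed at maturation after vitrification and not after fresh culture, 1068 had the same sign in fresh oocytes, 132 had an unadjusted interaction p under 0.05 and 0 passed after adjustment. Of the 618 that passed after fresh culture and not after vitrification, 575 had the same sign in vitrified oocytes, 78 had such a p and 0 passed. Both sets were chosen on parts of the same contrast, so the shares with a low p are descriptions only.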

How the data were processed

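RNA-seq of 32 single mouse oocytes was analysed from the submitters' table, for which their processing notes name HISAT2, featureCounts and mm10 without versions. Values of GV oocytes were deposited as whole numbers and taken as read counts. Values of MII oocytes look like expected or estimated counts as deposited: in each oocyte 11.4% to 19.4% are fractional, by a step of the authors that the labels do not describe. Because count tests were planned, everything was rounded to integers. Of 13202 entries 27 exact repeats were removed. The deposited table seems to have been selected on MII values, with a summed MII count of 10 or more for each entry, while 376 genes had no GV count at all.

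Genes were filtered with filterByExpr (10 counts, 15 in total), scaled by TMM (trimmed mean of M values), and fitted in edgeR 4.0.16 (R 4.3.3) with 4 group means. The interaction and the changes at maturation were contrasts of that fit, tested by the two-sided quasi-likelihood F test, adjusted after Benjamini and Hochberg over all 11470 genes, with a threshold of 0.05. Each standard error is the size of the log2 difference divided by the square root of its F statistic, and the 95% intervals are built from it. It is therefore approximate for large changes. The standard errors of the 2 changes at maturation do not combine into that of their interaction. Mean log2 CPM used a prior count of 2. The steps were tested on simulated counts. Named genes are the 10 of smallest p in each direction (mean log2 CPM from 4 upward, established symbols only), up to 2 members of each list by smallest p, and some names listed beforehand, not all printed. Genes and lists were chosen with earlier results of these data known. Gene lists were described by counts and medians, without a set test. Alternatives were the tools (DESeq2 1.42.0, limma-voom 3.58.1, robust dispersion), size factors, filters, rounding, whole values only, library number (20 and over) as a term or a split, a replicate block, leaving out each oocyte, and leaving out oocytes high in cumulus markers. Leaving out the GV oocyte of each treatment that stood farthest apart was added after seeing the data. Symbols were matched to GENCODE M21 (13059 of 13175) for positions and sequence on GRCm38.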

Additional observations from a re-analysis of the deposited data

Results flagged for a closer look

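The GV groups, of 4 oocytes each, were searched for single oocytes that stood apart from the other 3 in a named gene (Dixon's criterion, 0.829 of the group's range). Of 121 groups of values 15 met it. Chance gives about 1 in 20 among genes not chosen on these values, but many of these genes were, so the 2 shares cannot be compared. No explanation is given. Atad2 was at 35.2 CPM in vitrified GV replicate 1, against 22.6 to 24.7 CPM in the other 3. In the same oocyte Clec2h was at 0 CPM, against 0.0433 to 0.0507 CPM, which are deposited counts of 0 against 1 each, so a single read sets it apart. Fads2b there was at 17.2 CPM, against 0 to 0.0507 CPM. Ranbp2 there was at 42.8 CPM, against 22.96 to 24.9 CPM. Srp54c there was at 149.7 CPM, against 35.7 to 53.7 CPM. Zscan4c there was at 24.2 CPM, against 3.16 to 6.29 CPM. Aurkb was at 13.1 CPM in fresh GV replicate 1, against 6.54 to 7.49 CPM in the other 3. In the same oocyte Mpdz was at 27.6 CPM, against 15.4 to 15.9 CPM. Casp8 was at 58.8 CPM in fresh GV replicate 3, against 22.04 to 26.7 CPM in the other 3. In the same oocyte Tent2 was at 58.5 CPM, against 35.9 to 39.7 CPM. Cpox was at 3.47 CPM in vitrified GV replicate 3, against 12.4 to 13.5 CPM in the other 3. In the same oocyte Ppp1r15a was at 37.95 CPM, against 54.1 to 56.8 CPM. Efhd1 was at 4.51 CPM in vitrified GV replicate 4, against 0 CPM in the other 3. Gpatch2 was at 11.2 CPM in fresh GV replicate 4, against 15.2 to 15.8 CPM in the other 3. Syt12 was at 0 CPM in fresh GV replicate 2, against 1.38 to 1.62 CPM in the other 3.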

How the results depend on the processing

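No gene was called for the interaction in 40 of 46 alternative analyses. DESeq2 called 8, the size factors of DESeq2 in edgeR 3, and whole values only 3, and leaving out 1 oocyte gave 0 to 4. The 0 calls of limma-voom came with 719 genes at an unadjusted p under 0.05. With the replicate block 0 genes were called and 355 had such a p, against 467 without it. The labels do not say whether equal replicate numbers pair oocytes. Deviations of same-numbered GV oocytes of the 2 treatments had correlations of −0.38 to 0.19, and 1 of 4 correlated best with its own number. For same-numbered MII oocytes the correlations were −0.33 to 0.28, with a median of 0.08 against −0.01 for other numbers. There 3 of 12 correlated best with their own number. Calls at maturation ran from 6032 to 6635 after vitrification and from 5413 to 6251 after fresh culture when 1 oocyte was left out. With whole values only, where 6616 genes were tested, they were 3080 after vitrification and 2692 after fresh culture. The share of genes with an interval within −1 and 1 was 3.94% with whole values only, 5.11% with MII libraries numbered 20 and over and 22.6% with the stricter filter (mean CPM of at least 10), which tests fewer low genes, and 9.15% to 13.1% when 1 oocyte was left out. Of 62 genes named, 4 changed sign in some analysis. Ccnb1 was at 0.025 with MII libraries numbered under 20, and from −0.63 (without fresh GV replicate 3) to 0.42 (without vitrified GV replicate 1) when 1 oocyte was left out, with 0.059 without fresh GV replicate 4. Cnot7 ran from −1.24 without fresh GV replicate 3 to 0.46 without vitrified GV replicate 1, Rps6ka2 was at 0.51 by limma-voom, and Efhd1 was at −0.32 without the GV oocyte of each treatment that stood farthest apart. The cause was not tested. For genes below a mean log2 CPM of 4 the median standard error ran from 0.72 to 1.90 over 3 classes of level, with 4 GV oocytes per treatment. A difference had to be well above its standard error to reach even an unadjusted p under 0.05, and further above it to pass after adjustment.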
